A study of Mus musculus with 6 samples.

Results

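Metallothioneins and 2 genes that work with them in zinc homeostasis were followed in C2C12 cells, an established mouse line of skeletal muscle myoblasts that withdraws from the cell cycle and fuses into multinucleated myotubes when serum is changed. The members were the rows named Mt1, Mt2, Mt3, Mtf1 and Slc30a1, 5 of the 43074 gene symbols in a table of raw RNA sequencing counts. The rows were taken by symbol, but the set was selected on earlier results of the same libraries, among them a higher level of Mt2 with 4-phenylbutyric acid (4-PBA) than with DMSO. Member values of that contrast are therefore given as a description, without a test. Changes from day 0 were tested, but their day 4 libraries also enter that contrast, so member p-values are not free of the selection. Mt1, Mt2, Mtf1 and Slc30a1 passed the filter on low counts, as did 17433 genes in all, and Mt3 had no count in any library.

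There were 3 groups of 2 libraries, all of wild-type C2C12 cells and all with the same batch number. Day 0 cells were not treated. The remaining cells differentiated for 4 days in medium containing horse serum, with DMSO as the solvent control or with 1 mM 4-PBA, an aromatic fatty acid used to ease protein folding stress that also inhibits histone deacetylases. C2C12 is a single established line, and nothing in the labels says whether replicates were separate cultures, so p-values measure the spread between these libraries, which may be technical.

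Metallothioneins are small proteins rich in cysteine that bind zinc, copper and cadmium and buffer free zinc in the cell. Their genes are switched on by the zinc finger factor MTF-1 (gene Mtf1), which binds metal response elements in promoters when zinc is plentiful. Slc30a1 encodes ZnT1, the zinc exporter of the plasma membrane and another MTF-1 target, so metallothionein and Slc30a1 transcripts together are a common readout of zinc available to the nucleus. Metallothionein genes also respond to glucocorticoids and to oxidative stress, and they are known to be expressed in growing cells.

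The promoters of Mt1, Mt2 and Slc30a1, the expressed MTF-1 targets among the members, are shown because these genes had the same order of DMSO and 4-PBA levels at day 4. Each run holds 250 bases before to 50 after the start of transcription annotated by RefSeq on GRCm38.p6, on the plus strand of the genome, and capitals mark the core of the metal response element, searched as TGCACNC and TGCGCNC on either strand.

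Mt1, chr8:94178839-94179138: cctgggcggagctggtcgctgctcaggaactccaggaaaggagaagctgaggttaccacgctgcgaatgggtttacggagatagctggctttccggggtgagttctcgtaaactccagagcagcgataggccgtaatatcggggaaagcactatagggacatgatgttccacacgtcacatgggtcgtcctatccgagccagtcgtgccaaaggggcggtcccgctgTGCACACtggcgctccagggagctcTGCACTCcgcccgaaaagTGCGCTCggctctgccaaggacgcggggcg
Mt2, chr8:94172368-94172667: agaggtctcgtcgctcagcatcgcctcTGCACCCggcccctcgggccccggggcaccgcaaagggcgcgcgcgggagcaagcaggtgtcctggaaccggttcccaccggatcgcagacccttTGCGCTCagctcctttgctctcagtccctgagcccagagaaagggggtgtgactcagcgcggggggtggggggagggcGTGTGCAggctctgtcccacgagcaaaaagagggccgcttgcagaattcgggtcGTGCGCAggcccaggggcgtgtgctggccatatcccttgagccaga
Slc30a1, chr1:191906531-191906830: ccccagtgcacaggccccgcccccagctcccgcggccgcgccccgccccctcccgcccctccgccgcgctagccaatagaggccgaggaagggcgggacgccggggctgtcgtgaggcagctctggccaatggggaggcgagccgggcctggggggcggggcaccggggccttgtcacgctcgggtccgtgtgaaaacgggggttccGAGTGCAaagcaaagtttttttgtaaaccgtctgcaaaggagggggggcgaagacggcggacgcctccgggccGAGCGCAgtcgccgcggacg

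The Mt1 window held 3 such cores, 2 of them TGCACNC, the Mt2 window held 4 and the Slc30a1 window held 2. At least 1 core was present in 25.7% of 32851 RefSeq promoters of the same length, at least 2 in 7.11%, at least 3 in 1.97% and at least 4 in 0.518%. The Mt3 window held 1 core and the Mtf1 window held none of these letters. Slc39a10, another listed MTF-1 target that is expressed here, has 2 RefSeq windows, and both held 0 cores. The antioxidant response element core TGACNNNGC, which overlapped none of the metal response cores, occurred once in the Mt2 window and once in the Slc30a1 window, and in 12.4% of all promoters. A match of letters is not a binding site. The annotated starts differ between sources. In GENCODE M21, the first listed transcript of Mt1 begins 7 bases before the RefSeq start and its other transcripts begin 122 and 152 bases after it. The transcripts of Mt2 begin 46 and 242 bases after the RefSeq start. Those of Slc30a1 begin 14 bases before it and 475 bases after it. The windows end 50 bases after the RefSeq start. The bases just before the starts that lie 122, 152, 242 and 475 bases after it were therefore not searched. The numbers of metal and antioxidant response cores hold for these windows only, and cores beyond them are not counted.

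**Figure D1:**
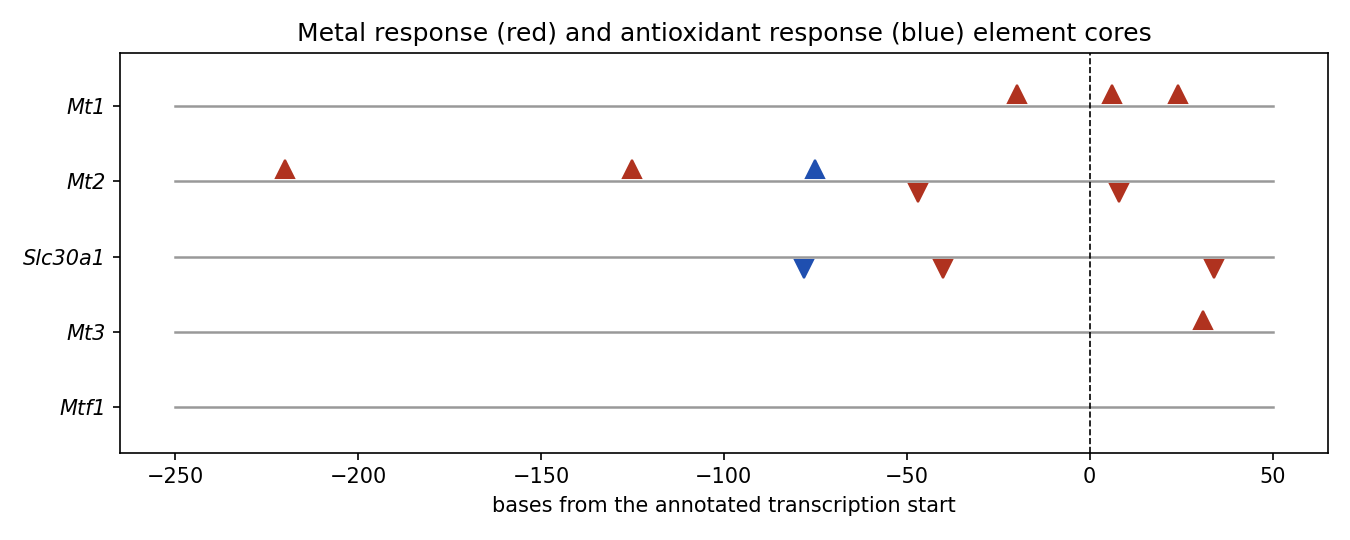
Positions of motif cores in the promoter windows of the 5 members, in bases from the RefSeq start of transcription (x axis); red triangles are metal response element cores and blue triangles antioxidant response element cores, pointing up on the strand of the gene and down on the other strand. Within these windows Mt2 carries 4 metal response cores, Mt1 3, Slc30a1 2, Mt3 1 and Mtf1 0.

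Total counts ranged from 47908926 to 74697397 per library. Summed over the 6 myotube markers (Myog, Mymk, Myh3, Ckm, Des, Tnnt3), levels were 928 to 933 CPM (counts scaled to library size) at day 0, 5370 to 5603 with DMSO and 5215 to 5306 with 4-PBA. The 5 markers of myoblasts and cycling cells summed to 1158 CPM at day 0, 401 to 426 with DMSO and 404 to 407 with 4-PBA. These 5 did not move together with DMSO against day 0: Ccnd1 (log2 fold change -2.13), Mki67 (-1.56) and Myf5 (-1.14) fell, while Pax7 (1.80, adjusted p 2.38e-05) and Myod1 (0.22, adjusted p 3.82e-06) rose. Adipocyte markers stayed at or below 0.165 CPM in sum and none of 4 passed the filter. Fibroblast markers summed to 14.4 to 14.8 CPM at day 0, 19.9 to 20.7 under DMSO and 20.5 to 21.9 under 4-PBA, with Tcf21 at 0 in every library. With DMSO against day 0, Pi16 was 26.9-fold and Dpt 3.08-fold higher and Pdgfra was lower (log2 fold change -0.32, adjusted p 0.00153). Leukocyte markers summed to 5.34 to 5.57 CPM at day 0, 1.67 to 2.28 under DMSO and 1.40 to 2.48 under 4-PBA, nearly all of it Cd68 (2.86-fold lower with DMSO than at day 0, adjusted p 4.55e-07), the 1 of 4 that passed the filter. Osteoblast markers summed to 1.15 to 1.61 CPM at day 0, 2.55 to 3.36 under DMSO and 2.53 to 2.79 under 4-PBA, and endothelial markers to 1.35 to 1.69, 2.28 to 2.58 and 1.82 to 1.87 CPM. The osteoblast sum was mostly Dmp1, 2.43-fold higher with DMSO than at day 0 (adjusted p 3.04e-06). The endothelial markers were split in that comparison. Tek was 3.21-fold higher (adjusted p 1.43e-06), while Kdr was 13.7-fold lower (adjusted p 8.03e-04, on 0 to 27 counts) and Pecam1 2.38-fold lower (adjusted p 0.0486).

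Mt1, the more abundant metallothionein transcript, measured 83.3 and 80.2 CPM in replicates 1 and 2 before differentiation. After 4 days it measured 13.4 and 15.3 CPM under DMSO, against 18.4 and 18.3 CPM under 4-PBA. Both day 0 libraries were far above all day 4 libraries, and both 4-PBA libraries were above both DMSO libraries. Of all tested genes, 81.9% did not overlap between DMSO and day 0 and 81.8% between 4-PBA and day 0. Between 4-PBA and DMSO 45.5% did not overlap, 23% on the higher side. The means were 81.8 ± 2.20 CPM at day 0, 14.3 ± 1.35 with DMSO and 18.3 ± 0.0481 with 4-PBA (SD, n = 2).

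Mt2 followed the same order at a lower level. Replicates 1 and 2 measured 42.6 and 43.6 CPM before differentiation, then 5.50 and 6.91 CPM under DMSO, against 9.40 and 8.53 CPM under 4-PBA. No library of 1 group overlapped another group. The shares of all tested genes without overlap were 81.9% for DMSO and day 0, 81.8% for 4-PBA and day 0 and 45.5% for 4-PBA and DMSO. The means were 43.1 ± 0.748, 6.21 ± 1.00 and 8.97 ± 0.616 CPM (SD, n = 2).

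Mt3, the metallothionein known from brain as growth inhibitory factor, had 0 counts in each of the 6 libraries, which allows a level of up to 0.0402 to 0.0626 CPM depending on the library (3 counts of the total, for counting error only). Mt4, a metallothionein known from stratified epithelium and no member here, also had 0 counts throughout. The metallothionein signal in these cells therefore came from Mt1 and Mt2.

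Slc30a1, the plasma membrane zinc exporter, measured 16.5 and 16.4 CPM before differentiation, then 13.0 and 14.0 CPM under DMSO, against 18.3 and 19.8 CPM under 4-PBA. Its lowest level was with DMSO and its highest with 4-PBA, with day 0 between them and no overlap of libraries between any pair of groups. Taken pair by pair, this was the case for 81.9% (DMSO and day 0), 81.8% (4-PBA and day 0) and 45.5% (4-PBA and DMSO) of all tested genes. Mtf1, which encodes the zinc-sensing factor, measured 36.8 CPM in both replicates before differentiation, then 37.3 and 37.4 CPM under DMSO, against 34.5 and 37.6 CPM under 4-PBA. Its 4-PBA libraries spanned the level of all other libraries.

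**Figure D2:**
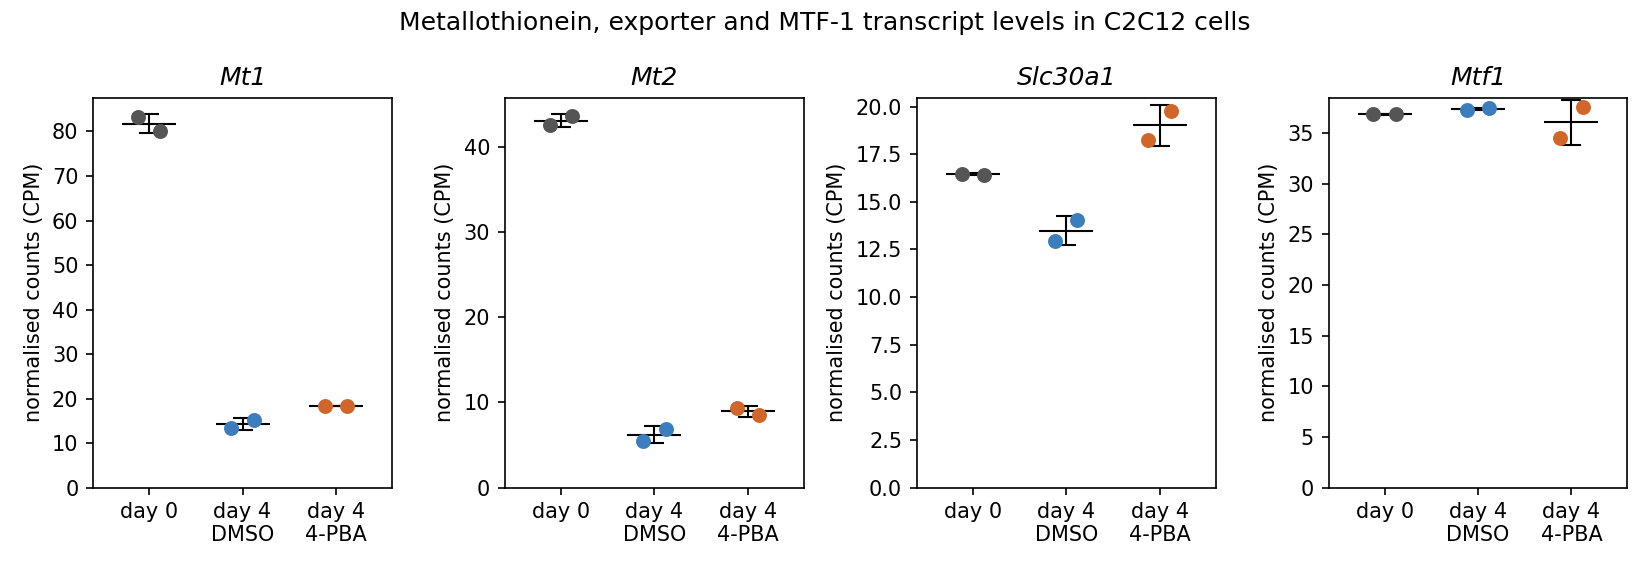
Normalised counts (CPM, y axes from 0) of Mt1, Mt2, Slc30a1 and Mtf1 in each library (points) by group, with the mean and SD of 2 libraries (black bars). Mt1 and Mt2 fall to between 14.4% and 22.4% of the day 0 level, Slc30a1 is lowest with DMSO and highest with 4-PBA, and Mtf1 is level.

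Levels can be compared between genes only per length, here as CPM per kilobase of the first GENCODE M21 transcript of each gene. At day 0 this was 148.9 ± 4.01 for Mt1, 84.3 ± 1.46 for Mt2, 4.83 ± 0.00149 for Mtf1 and 3.14 ± 0.00780 for Slc30a1 (SD, n = 2). With DMSO the levels per kilobase were 26.1 ± 2.46, 12.1 ± 1.96, 4.89 ± 0.0134 and 2.57 ± 0.144 in the same order of genes. With 4-PBA they were 33.4 ± 0.0876, 17.5 ± 1.21, 4.72 ± 0.287 and 3.63 ± 0.204. The order Mt1, Mt2, Mtf1, Slc30a1 was the same in all 3 groups, and neighbours in it differed by more than their SDs. These transcripts are 549 bases long for Mt1, 511 for Mt2, 7631 for Mtf1 and 5244 for Slc30a1.

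Differentiation without the drug was read from DMSO at day 4 against day 0. The metallothioneins fell steeply: Mt1 by 2.51 (SE 0.0596) on the log2 scale, a 5.68-fold lower level, and Mt2 by 2.79 (SE 0.0853), a 6.91-fold lower level. Mt1 kept 17.5% of its day 0 level and Mt2 kept 14.4%. Slc30a1 fell far less, by 0.28 (SE 0.0784), to 82.0% of its day 0 level. Mtf1 had a log2 fold change of 0.020 (SE 0.0547), with an adjusted p of 0.763.

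In edgeR's quasi-likelihood test with Benjamini-Hochberg adjustment over all genes, the adjusted p was 1.66e-28 for Mt1, 2.99e-24 for Mt2 and 0.00183 for Slc30a1. Thus 3 of the 4 tested members passed at 0.05, where 66.3% of all tested genes did (33.8% higher and 32.6% lower), so a call alone says little here and the size of the change says more. Among the 10681 tested genes with a mean of at least 5 CPM, 32 fell further than Mt2 (0.300%) and 49 further than Mt1 (0.459%), whereas 32.0% fell further than Slc30a1. The libraries of all 4 tested members did not overlap between these groups, as was the case for 81.9% of all tested genes, and Mtf1 was on the higher side, as were 42% of them. The fall of Mt1 and Mt2 went with falls of Ccnd1, Mki67, Myf5, Cd68, Pdgfra, Kdr and Pecam1. It also went with rises of Pax7, Myod1, Pi16, Dpt, Dmp1, Tek and the summed myotube markers given above. The part of these changes in the fall of Mt1 and Mt2 was not tested. In these bulk libraries, fewer cells that express a gene and less of its RNA per cell cannot be told apart.

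The same days with 4-PBA gave smaller falls of the metallothioneins and no fall of the exporter. Against day 0, Mt1 fell by 2.16 (SE 0.0586) and Mt2 by 2.26 (SE 0.0824) on the log2 scale, with adjusted p of 8.75e-27 and 4.28e-22. They kept 22.4% and 20.8% of their day 0 levels. Slc30a1 rose to 115.6% of its day 0 level, a log2 fold change of 0.21 (SE 0.0769, adjusted p 0.0170). That call was lost without day 0 replicate 1 (adjusted p 0.0663), without day 0 replicate 2 (0.0743), without 4-PBA replicate 2 (log2 fold change 0.15, adjusted p 0.185) and in the DESeq2 Wald test (0.0524), while over the other alternatives it was as low as 0.00853 and the direction was the same in all 14 alternatives run. Mtf1 was at -0.031 (SE 0.0552, adjusted p 0.640), and at 0.035 without 4-PBA replicate 1. In this comparison 65.6% of all tested genes were called, 33.2% higher and 32.4% lower. Libraries of Mt1, Mt2 and Slc30a1 did not overlap, as for 81.8% of all tested genes, with 41.7% on the higher side as for Slc30a1. This comparison shares its day 0 libraries with the one before, so their values stand side by side only. Its 4-PBA libraries also enter the contrast with which the set was chosen, so the member p-values here, that of Slc30a1 included, are not free of that choice.

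**Figure D3:**
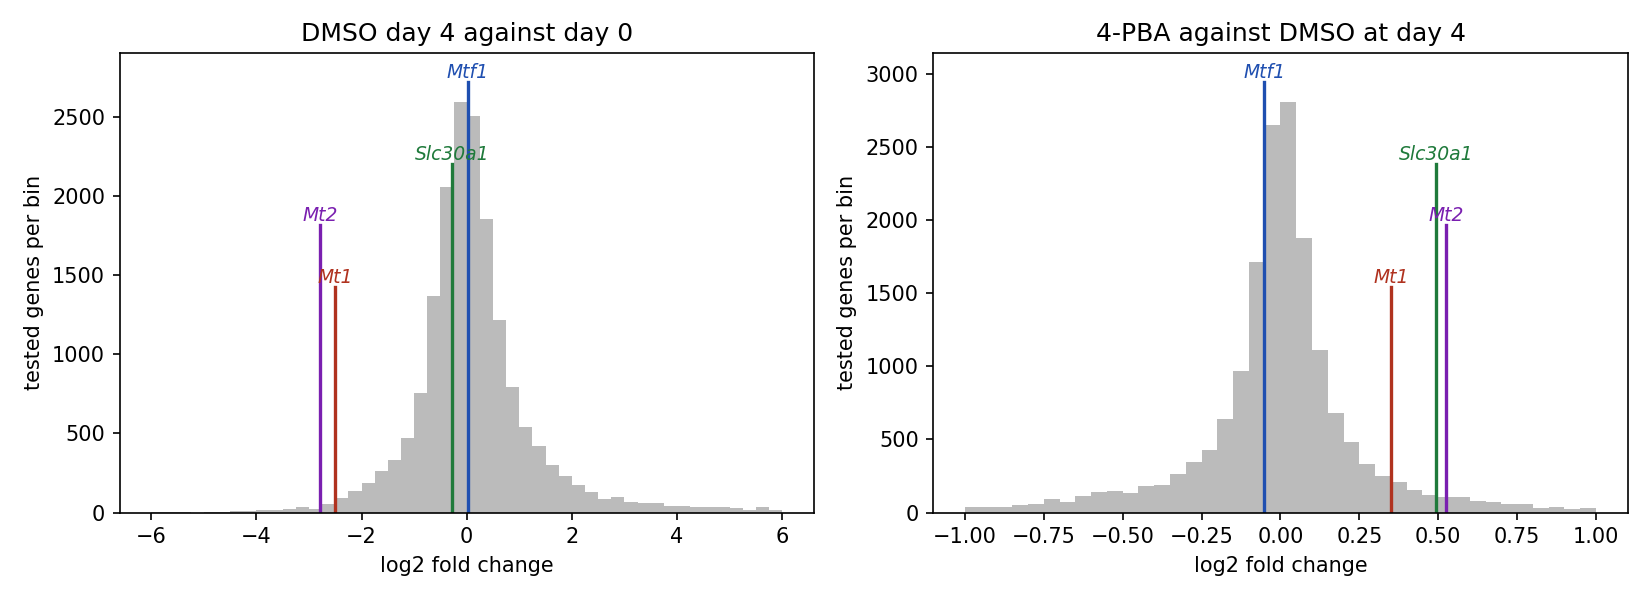
Number of tested genes (y axis) by log2 fold change (x axis, different scales in the 2 panels), with the values of Mt1, Mt2, Slc30a1 and Mtf1 as coloured lines whose heights carry no value. With DMSO against day 0, Mt1 (-2.51) and Mt2 (-2.79) lie in the lower tail, and with 4-PBA against DMSO, Mt1 (0.35), Slc30a1 (0.49) and Mt2 (0.52) lie in the upper tail. The set was chosen with values of the right panel known.

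Between 4-PBA and DMSO at day 4, Mt2, Slc30a1 and Mt1 were higher with the drug. The log2 difference was 0.52 (SE 0.0951) for Mt2, a 1.44-fold higher level, 0.49 (SE 0.0771) for Slc30a1 (1.41-fold) and 0.35 (SE 0.0645) for Mt1 (1.27-fold). Mtf1 differed by -0.052 (SE 0.0546). Both libraries with 4-PBA lay above both with DMSO for Mt1, Mt2 and Slc30a1, as they did for 23% of all tested genes (45.5% did not overlap in either direction). These are the values with which the set was chosen, and no test is attached to them. Of the markers above, edgeR called Ccnd1 (-0.29, adjusted p 4.46e-07), Mymk (-0.17, adjusted p 0.0134) and Des (-0.11, adjusted p 0.00882), all lower with 4-PBA than with DMSO. No other tested marker was called, where 4.90% of all tested genes were. Among the other myoblast and myotube markers, Mki67 (0.19), Pax7 (0.21), Myf5 (0.061), Myog (0.0052) and Myh3 (0.018) were on the higher side. Myod1 (-0.045), Ckm (-0.17) and Tnnt3 (-0.12) were on the lower side. The part of the markers in the differences was not tested.

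The sizes varied with the DMSO library used. DMSO replicate 1 had the lowest level of Mt1, Mt2 and Slc30a1 among all libraries. Without it the log2 difference was 0.26 for Mt1, 0.37 for Mt2 and 0.44 for Slc30a1, and without DMSO replicate 2 it was 0.45, 0.71 and 0.55. In CPM, where the high day 0 level weighs most, the metallothionein differences were small against the fall from day 0. The Mt1 level was 3.98 CPM higher with 4-PBA than with DMSO, 5.90% of its fall with DMSO, and the Mt2 level was 2.76 CPM higher, 7.49% of its fall. On the log2 scale, differences of 0.35 for Mt1 and 0.52 for Mt2 stood beside changes of -2.51 and -2.79 with DMSO against day 0. For Slc30a1 the difference of 5.52 CPM was larger than the fall of 2.95 CPM. Among the 10681 tested genes with a mean of at least 5 CPM, 10 (0.0936%) had a larger fitted increase with 4-PBA than Mt2. For Slc30a1 the number was 21 (0.197%) and for Mt1 it was 86 (0.805%). Among all 17433 tested genes, 4.34% lay beyond Mt2, 4.75% beyond Slc30a1 and 7.41% beyond Mt1. The set was chosen with values of this contrast known, so these positions are a description and no support.

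The balance of Mt1 and Mt2 was read within each library, where it does not depend on scaling between libraries. Mt2 made up 33.8% of Mt1 plus Mt2 counts in day 0 replicate 1 (Wilson 95% interval 32.6% to 35.0%, of 6120 counts) and 35.2% in replicate 2 (34.2% to 36.2%, of 8696). With DMSO the share was 29.1% (26.6% to 31.8%, of 1192) and 31.1% (28.9% to 33.4%, of 1648). With 4-PBA it was 33.9% (31.7% to 36.1%, of 1724) and 31.8% (29.6% to 34.1%, of 1666). These intervals cover counting error only.

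The mean share was 34.5 ± 1.00% at day 0 (SD, n = 2), 30.1 ± 1.43% with DMSO (n = 2) and 32.8 ± 1.46% with 4-PBA (n = 2). The difference of day 4 from day 0 was -3.03 percentage points, with a two-sided exact permutation p of 0.267 where 4 libraries against 2 cannot go below 0.0667.

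**Figure D4:**
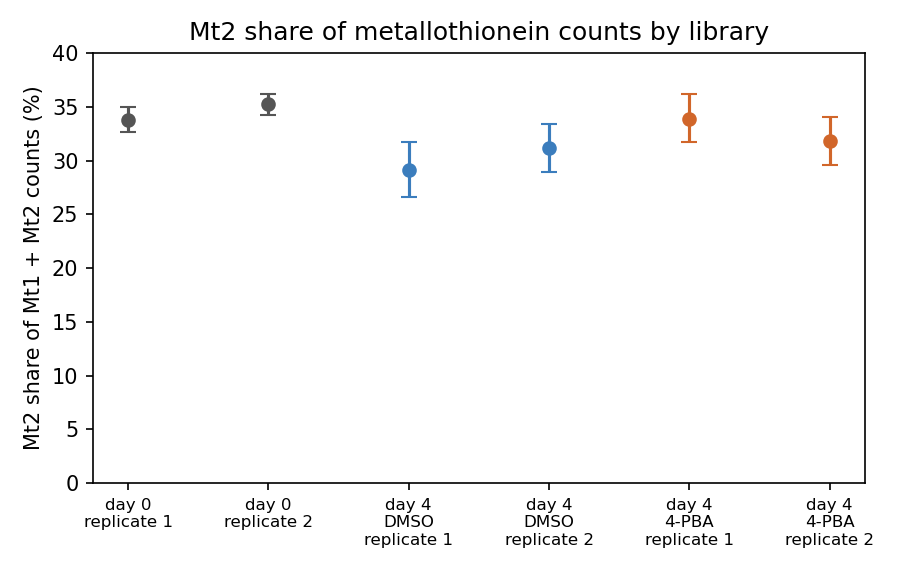
Share of Mt2 among Mt1 plus Mt2 counts (%, y axis from 0) in each of the 6 libraries, with Wilson 95% intervals for counting error. All 6 shares lie between 29.1% and 35.2%.

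By position, Mt1 and Mt2 are adjacent protein-coding genes with Mt3 and Mt4 on the same side, between Bbs2 and Nup93 on mouse chromosome 8 in RefSeq. Of 9 genes listed around the members, 7 were tested. With DMSO against day 0, 4 were called higher, among them Gnao1 (0.92), Herpud1 (0.88) and Bbs2 (0.55), and 2 lower, Nup93 (-0.61) and Nudt21 (-0.47), given as log2 fold changes. Of all tested genes 33.8% were called higher and 32.6% lower. Bbs2 and Nudt21 were named after their values were seen, and the median over the 7 was 0.29 beside 0.023 over all tested genes. Bbs2 encodes a protein of the primary cilium and Nup93 a nuclear pore protein. None of these 7 genes was called between 4-PBA and DMSO by edgeR, DESeq2 or limma-voom, with 1 at an unadjusted p under 0.05 in edgeR. In edgeR 4.90% of all tested genes were called, so 0 of 7 says little. Without DMSO replicate 1, edgeR called 1 of them.

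Exons of Mt2 overlap Gm45774 on the opposite strand over 73.5% of their bases in GENCODE M21. Gm45774 had 0 counts in both day 0 libraries, 4 and 10 under DMSO, then 2 and 17 under 4-PBA, against 347 to 3063 counts of Mt2. Exons of Mtf1 overlap 1110065P20Rik over 8.09% and those of Slc30a1 overlap 1700034H15Rik over 8.92%, also on the opposite strand. The libraries keep strand, but whether counting used it is not given in the sources used here, so reads from these partners could not be told apart if it did not. Read in the direction of the transcripts, Mt1 and Mt2 shared no run of 50 bases with each other or with any other gene's transcript in GENCODE M21. Reverse complements, such as that of Gm45774 for Mt2, were not searched.

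The genes whose pattern over the 6 libraries was most like a member's were found among 10680 others with a mean of at least 5 CPM, by the root mean square difference of log2 CPM after centring on each gene's mean. Mt1 was the closest of all to Mt2 (0.13), followed by Exo1 (0.18), a nuclease of DNA repair, and Id1 (0.18), an inhibitor of myogenic bHLH factors. For Mt1 the closest were Id1 (0.068), Ccne2 (0.085), a cyclin of S phase entry, and Lrr1 (0.10), and Mt2 had rank 9. Id1 measured 56.0 and 57.9 CPM before differentiation, then 9.84 and 11.7 CPM under DMSO, against 12.3 and 12.9 CPM under 4-PBA. Its order of groups was that of Mt1, which follows from choosing it by likeness over these same libraries. In edgeR Id1 was not called between 4-PBA and DMSO (log2 fold change 0.22, adjusted p 0.101). Slc30a1 was most like Mex3a (0.064), an RNA-binding protein, Maskbp3 (0.080) and Gm14295 (0.098), and Mtf1 was most like Zrsr2 (0.017), Jak1 (0.022) and Mon1b (0.023), all nearly level.

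Other targets of MTF-1 moved both ways at differentiation. Of 9 listed, 8 were tested, and with DMSO against day 0, 4 were called higher and 2 lower (median log2 fold change 0.19). Of all tested genes 33.8% were called higher and 32.6% lower, so a split of this kind is not particular to the list. Gclc, which encodes the catalytic subunit of glutathione synthesis, fell by 0.83 (SE 0.0488, adjusted p 4.63e-17), and the selenoprotein gene Selenoh fell by 1.09 (SE 0.0767, adjusted p 3.11e-14). Csrp1, a LIM domain protein, rose by 0.43 (SE 0.0330, adjusted p 3.16e-13), as did the selenoprotein gene Selenow (0.47), the growth factor gene Pgf (0.49) and Slc40a1 (2.43), the iron exporter ferroportin; Selenow, Pgf and Slc40a1 were named after their values were seen.

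Between 4-PBA and DMSO, 855 genes (4.90%) were called in all, 2.13% higher and 2.78% lower, and without 4-PBA replicate 1 or 2 the number was 341 or 296. Of the 8 MTF-1 targets outside the members, 1 was higher and 1 lower with 4-PBA, with a median log2 fold change of 0.093 beside 0.0021 over all tested genes. The lower one was Slc39a10, a zinc importer of the plasma membrane that MTF-1 is known to repress when zinc is plentiful. It measured 63.6 and 66.0 CPM before differentiation, then 67.8 and 57.5 CPM under DMSO, against 44.8 and 48.8 CPM under 4-PBA. Both 4-PBA libraries were below all other libraries. In either direction, 45.5% of all tested genes did not overlap between 4-PBA and DMSO and 81.8% between 4-PBA and day 0.

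Slc39a10 fell by 0.42 (SE 0.0680, adjusted p 0.00242) with 4-PBA against DMSO and by 0.47 (SE 0.0684, adjusted p 2.71e-05) against day 0. Its change with DMSO against day 0 was -0.050 (SE 0.0669, adjusted p 0.536), and rested on the DMSO library: it was -0.17 without DMSO replicate 1 (adjusted p 0.00320) and 0.064 without replicate 2. The fall against DMSO was called in every alternative run, with log2 values from -0.53 to -0.30. The higher one was Csrp1, at 396 and 370 CPM under DMSO, against 449 and 427 CPM under 4-PBA (a log2 rise of 0.19, SE 0.0328, adjusted p 2.55e-04).

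The family of zinc exporters held 9 genes besides Slc30a1, of which 5 passed the filter. With DMSO against day 0, 1 of the 5 was called higher, 2 were called lower and 2 were not called. Of all tested genes 33.8% were called higher and 32.6% lower. Slc30a4, an exporter of secretory vesicles, fell by 0.43 (SE 0.0304, adjusted p 8.38e-15), Slc30a6 fell by 0.28 and Slc30a9 rose by 0.33 (SE 0.0380, adjusted p 1.35e-09). The call of Slc30a6, named after its values were seen, was lost without day 0 replicate 1 (log2 fold change -0.18). With 4-PBA against DMSO only Slc30a4 was called of the 5, where 4.90% of all tested genes were, and it was lower, the opposite direction to Slc30a1. It measured 245 and 242 CPM under DMSO, against 221 and 216 CPM under 4-PBA, a fall of 0.16 (SE 0.0306, adjusted p 0.00119) that was not called without 4-PBA replicate 2 (adjusted p 0.0919).

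Of 14 zinc importers 12 were tested, and with DMSO against day 0, 5 were called higher and 4 lower. Of all tested genes 33.8% were called higher and 32.6% lower. Slc39a3 rose by 0.62 (adjusted p 4.45e-13), and smaller rises were seen in Slc39a13 (0.34), Slc39a1 (0.29), Slc39a11 (0.26) and Slc39a9 (0.21). Slc39a6 fell by 0.60 (adjusted p 1.31e-17), Slc39a14, which also carries iron and manganese, by 0.42 (adjusted p 1.71e-11) and Slc39a8 by 0.79. Slc39a2 fell by 1.40 on 8 to 26 counts per library at day 0 and with DMSO, and its call was lost in 9 of the 13 alternatives that kept it. The importers outside the 3 with the smallest adjusted p were named after their values were seen. With 4-PBA against DMSO, Slc39a14 was the other importer called beside Slc39a10, at 80.6 and 77.9 CPM under DMSO, against 68.8 and 71.3 CPM under 4-PBA (a fall of 0.18, SE 0.0405, adjusted p 0.00586), and its call was lost without 4-PBA replicate 1 (adjusted p 0.162).

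**Figure D5:**
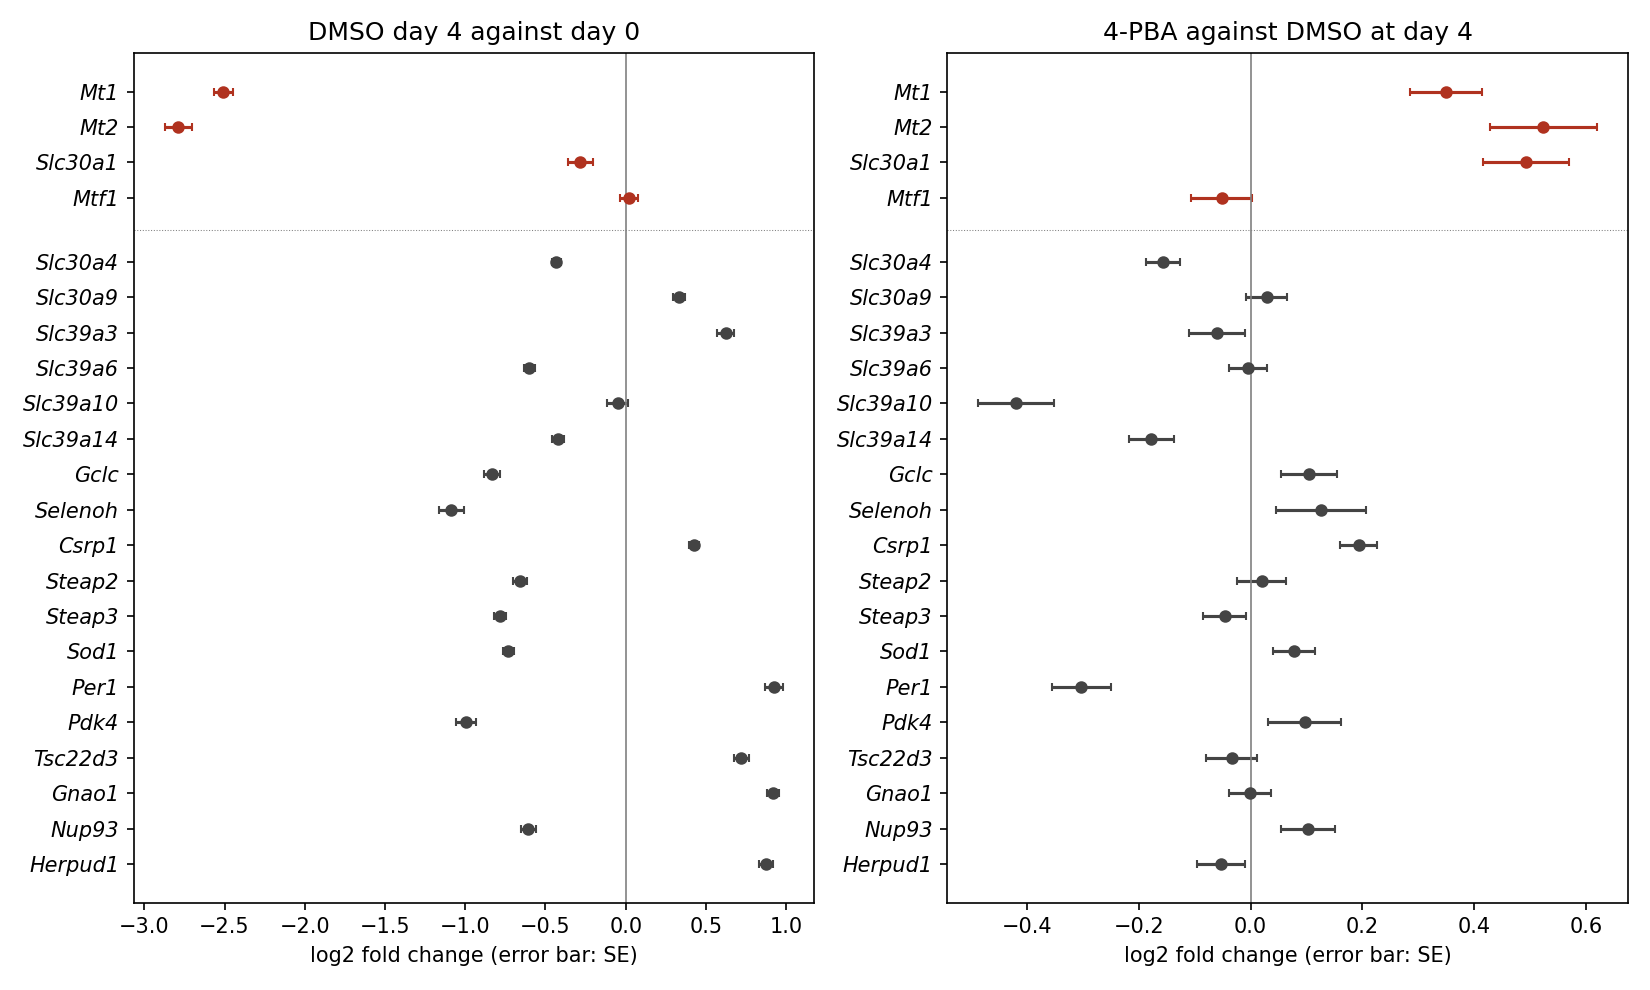
Log2 fold changes (x axes, different scales) with SE for the 4 tested members (red) and the list genes named by rule (grey), for DMSO against day 0 (left) and 4-PBA against DMSO (right). With 4-PBA, Mt1, Mt2 and Slc30a1 lie to the right, Slc39a10 (-0.42), Per1 (-0.30), Slc39a14 and Slc30a4 to the left, and Mtf1 near 0.

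Copper, the other metal that metallothioneins hold, had 13 tested genes of 14 in its handling list. With DMSO against day 0, 5 were called higher and 7 lower, where 33.8% and 32.6% of all tested genes were. Among the lower ones were Steap3 (-0.78) and Steap2 (-0.66), which reduce iron and copper, and Sod1 (-0.73), the copper and zinc superoxide dismutase. With 4-PBA against DMSO 0 of the 13 were called by edgeR or DESeq2 and 1 by limma-voom, with 3 at an unadjusted p under 0.05 in edgeR. In edgeR 4.90% of all tested genes were called. With either other filter on low counts, or without DMSO replicate 1, edgeR also called 1 of them. The median of this list with the drug was 0.047.

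Genes known to respond to glucocorticoids, which also induce Mt1 and Mt2, moved both ways. Of 10 tested, 5 were called higher and 4 lower with DMSO against day 0, where 33.8% and 32.6% of all tested genes were. Per1 at 0.92 and Tsc22d3 (GILZ) at 0.72 were among the rises. Pdk4, a kinase that limits pyruvate oxidation, was among the falls (adjusted p 3.82e-16). With 4-PBA against DMSO 1 of the 10 was called, where 4.90% of all tested genes were. This was Per1, a clock gene, which was lower (-0.30, SE 0.0531, adjusted p 3.34e-04), while Mt1 and Mt2 were higher. Its levels were 47.7 and 47.0 CPM under DMSO, against 39.4 and 37.4 CPM under 4-PBA. At an unadjusted p under 0.05 there were 5 of the 10: Per1 and Sgk1 (-0.17) on the lower side and Dusp1 (0.39), Fkbp5 (0.27) and Klf9 (0.10) on the higher side, the last 4 named after their values were seen and none of these 4 called, with adjusted p from 0.0929 to 0.266. The number called was 4 without 4-PBA replicate 1 or with the least strict filter, 3 without 4-PBA replicate 2, 2 without either DMSO replicate or in DESeq2, and 3 with a replicate block.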

How the data were processed

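The authors deposited raw counts by gene symbol in 1 table. Each library has its own column, and 0 columns belong to other samples. The submitters' processing notes name the build GRCm39, and the aligner, counting tool, annotation, filters and strand setting are not given in the sources used here. Per the labels, DNase-treated total RNA was made into directional libraries. The counts hold no coordinates, and those printed come from RefSeq tables on GRCm38.p6.

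Genes were filtered (filterByExpr by group), scaled (TMM) and fitted with 1 mean per group over all 6 libraries in edgeR 4.0.16 under R 4.3.3. The test was robust glmQLFit with glmQLFTest, with p-values adjusted by Benjamini-Hochberg over 17433 genes and called at 0.05. The 3 residual degrees of freedom mean that p-values rest on a spread pooled across genes (common coefficient of variation 3.74%), since 2 libraries against 2 cannot reach 0.05 by relabelling. SE is the log2 fold change divided by the square root of F. CPM are TMM-scaled. Log2 CPM for patterns used a prior count of 2. Replicates were not duplicates of 1 library (chi-square per degree of freedom 3.77 to 6.64). The script was tested on simulated data.

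The members and gene lists were chosen with earlier results of these data known. Named genes are the members, up to 3 called genes per list with the smallest adjusted p in DMSO against day 0 and in 4-PBA against DMSO, and the 3 nearest patterns of each expressed member. The alternatives tried were scaling by library size alone or by DESeq2 size factors, other filters, the DESeq2 1.42.0 Wald test, voom of limma 3.58.1, only the 4 libraries compared, a replicate block and each library left out. Sequences are from RefSeq and all 5 members matched. Transcript lengths and overlaps are from GENCODE M21. Protein sequences were not used here. The values of 1 listed gene are not reported here. Figures used Python 3.11.15 and matplotlib 3.10.9.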

Additional observations from a re-analysis of the deposited data

How the results depend on the processing

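Of 168 values of the 4 tested members under alternatives (12 log2 fold changes, 14 alternatives each), 162 counted as unchanged. For changes from day 0 this meant the same direction and side of the threshold. For 4-PBA against DMSO it meant a shift below the combined SD of both groups. Leaving out 1 of 2 libraries could hardly exceed that SD, so those values carry no weight. Mtf1 counted as unchanged there although it went from -0.052 to 0.0097 without 4-PBA replicate 1. The exceptions concern Slc30a1 and Mtf1. The change of Slc30a1 with 4-PBA against day 0 was 0.20 in the DESeq2 Wald test, where its call was lost, and 0.15 to 0.27 with 1 library left out. The Mtf1 change with DMSO against day 0 was -0.0076 with library size only, and with 4-PBA against day 0 it ran from -0.094 to 0.035 with 1 library left out; the cause was not tested. With 1 library left out, the number of genes called between 4-PBA and DMSO ran from 296 to 1194 (the cause was not tested), and the log2 change of Slc39a10 with DMSO against day 0 ran from -0.17 to 0.064. Of 783 values of list genes, 756 kept direction and side of the threshold, 25 lost the call, 1 gained it and 1 reversed. Of 252 counts of called list genes, 233 stayed within 1.5 times, the others including 5 of 5 zinc exporters called without DMSO replicate 1 (3 in all libraries). Another scaling moved the median over all genes by less than 0.1. With library size only, 51.5% of calls between 4-PBA and DMSO were higher, against 43.4% with TMM. Same-numbered replicates did not deviate together (correlations of deviations -0.028, -0.0031 and -0.012 between pairs of groups), so the numbers were not taken as pairs. With the replicate block the log2 difference between 4-PBA and DMSO was 0.35 for Mt1, 0.53 for Mt2 and 0.49 for Slc30a1, no member call changed, and 768 genes were called between 4-PBA and DMSO. Mt3 had 0 counts and the list gene Slc39a2 had 8 to 26 counts per library. The values of Mt1, Mt2, Mtf1 and Slc30a1 rest on 2 libraries per group, and what limits their precision was not tested.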
